A study of Mus musculus with 2 samples.

Results

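The genes described here are 45 members of the Wnt signalling pathway, of 55536 annotated genes, in the left cerebral cortex of mice at postnatal day 10. They were chosen by gene symbol alone: the 19 Wnt ligands, the 10 Frizzled receptors, the coreceptors Lrp5 and Lrp6, 4 secreted Frizzled-related proteins (Sfrp), 4 Dickkopf genes (Dkk), the scaffolds Axin1 and Axin2, and the 4 transcription factors of the TCF/LEF family. Total RNA was sequenced from 2 male B6CASTF1/J mice, the first-generation cross of the laboratory strain C57BL/6J with the wild-derived strain CAST/EiJ, each 10 days old and obtained through The Jackson Laboratory. Each animal gave 1 library from 300 ng of RNA, with ERCC spike-in RNAs added, and both libraries belong to a single untreated group. The labels number the animals separately but carry the same donor identifier on both, so the spread between the libraries may be partly technical. Without a second group there is no contrast to test and no p-value is given.

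Wnt ligands are secreted lipid-modified proteins that bind a Frizzled receptor together with an Lrp5 or Lrp6 coreceptor. In the canonical branch this holds back a destruction complex built on Axin and Apc, so that beta-catenin accumulates, enters the nucleus and acts with TCF/LEF factors on target genes. Sfrp proteins bind ligands outside the cell, and most Dickkopf proteins block the Lrp coreceptors. In the brain the pathway patterns the early cortex and hippocampus, drives the growth of brain vessels, and later takes part in axon guidance, dendrite growth and synapse formation.

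Library depth was 31142173 expected counts in annotated genes in replicate 1 and 30111214 in replicate 2. TPM is a level per length that adds up to 1 fixed total per library. For a gene with 1 kb of effective length, 1 TPM stood for 20.5 counts in the replicate 1 library and 19.7 counts in the other. Defining markers of the labelled tissue were present: 6 of 6 excitatory neuron markers and 5 of 5 astrocyte markers reached 1 TPM in both libraries. The libraries differed in markers of adjoining tissue. The summed level of 8 choroid plexus markers was 9.81 TPM in replicate 1 and 316 TPM in replicate 2, and that of 6 striatal markers was 182 TPM in replicate 1 and 123 TPM in replicate 2. No marker of either list was at 0 in either library.

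Of the 45 genes, 27 were detected, meaning 1 TPM or more in both libraries, and 18 were not. The same was true of 59.6% of the 22015 nuclear protein-coding genes. Detection was uneven between roles: 7 of 19 ligands, 9 of 10 Frizzled genes, 2 of 2 Lrp coreceptors, 2 of 4 Sfrp genes, 1 of 4 Dickkopf genes, 2 of 2 Axin genes and 4 of 4 TCF/LEF genes. Summed over each role, the Frizzled genes held the most at 69.8 ± 1.58 TPM (mean ± SD, n = 2), followed by the ligands at 53.7 ± 1.82 TPM. The Dickkopf genes followed with 38.3 ± 5.67 TPM, the Axin genes with 27.0 ± 2.17 TPM and the Lrp coreceptors with 25.8 ± 0.785 TPM, and the libraries of these last roles overlapped. Without transcripts under 500 bases the Axin genes summed to 24.3 TPM, below the Lrp coreceptors. The TCF/LEF factors summed to 13.1 ± 0.601 TPM and the Sfrp genes to 10.2 ± 0.141 TPM. In these whole-tissue samples, fewer cells of a type and less RNA per cell cannot be told apart.

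**Figure D1:**
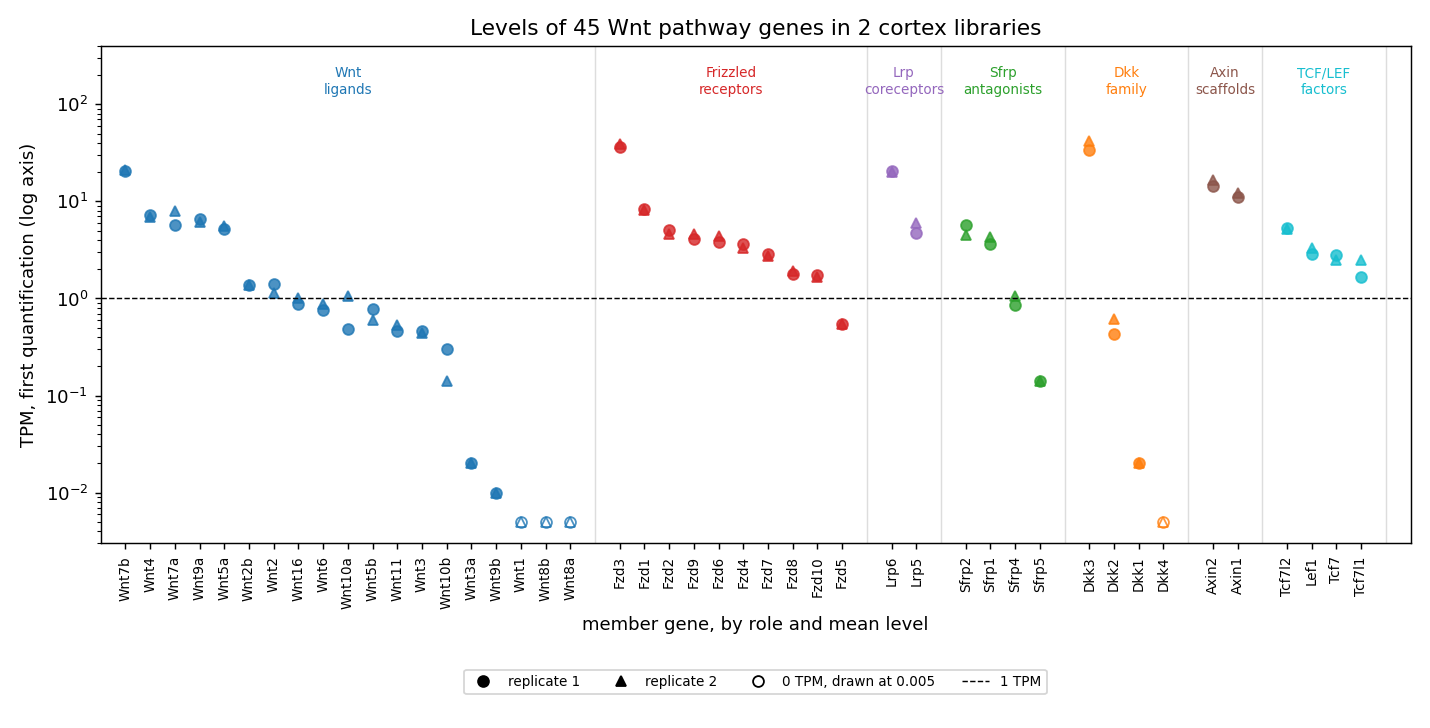
Level of each of the 45 genes in TPM (first quantification, log axis), grouped by role and ordered by mean within a role; circles are replicate 1, triangles are replicate 2, open symbols are genes at 0, and the dashed line is 1 TPM. Wnt7b, Fzd3, Lrp6 and Dkk3 stand above the other members of their roles in both libraries, and 7 of 19 ligands lie at or above the line in both.

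Among the ligands, Wnt7b stood apart. Wnt7b (chr15:85535437-85582473, minus strand, mm10), which with Wnt7a is known for driving the growth of brain vessels and the blood-brain barrier, was at 20.7 TPM in replicate 1 and 21.3 TPM in replicate 2, from 1258 and 1255 expected counts. It held 39.1% ± 0.612 of the summed ligand level (n = 2). The next ligands lay close together well below it. Wnt4 (chr4:137277489-137299726), best known from kidney and gonad development, was at 7.23 TPM in replicate 1 and 6.99 TPM in replicate 2. Wnt7a (chr6:91363981-91411363), the closest relative of Wnt7b, was at 5.72 TPM and 7.90 TPM. Wnt9a (chr11:59306928-59333552), known from joint formation, was at 6.54 TPM and 6.10 TPM. Wnt5a (chr14:28504750-28527448), the main ligand of the branch that works without beta-catenin, was at 5.26 TPM and 5.55 TPM. The libraries of Wnt7a overlapped those of Wnt4 and of Wnt9a, so the place of Wnt7a beside them is not settled. Wnt4, Wnt9a and Wnt5a did not overlap with each other.

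The remaining detected ligands were the related genes Wnt2b, at 1.38 TPM and 1.37 TPM in replicates 1 and 2, and Wnt2, at 1.40 TPM and 1.13 TPM, and their libraries overlapped. Below the detection level in at least 1 library but with counts in both came Wnt16, Wnt6, Wnt10a, Wnt5b, Wnt11, Wnt3 and Wnt10b, with means from 0.220 TPM for Wnt10b to 0.935 TPM for Wnt16. Neighbours in the run Wnt16, Wnt6, Wnt10a and Wnt5b overlapped, as did Wnt11 and Wnt3. Wnt3a, a ligand of the embryonic cortical hem that is needed for the hippocampus, had 1 expected count in each library, and so did Wnt9b. Wnt1, known from the midbrain, Wnt8a and Wnt8b had 0 counts in both libraries. A count of 0 allows up to 3 counts, which is 0.0641 TPM in replicate 1 and 0.0668 TPM in replicate 2 for Wnt1 and 0.0730 TPM and 0.0761 TPM for Wnt8b, with counting error only.

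Of the ligand genes, 8 lie in 4 pairs less than 100 kb apart, and members of a pair did not always have like levels. Wnt3a and Wnt9a, on chromosome 11 in opposite directions with 16.2 kb between them, had mean levels of 0.02 TPM and 6.32 TPM. Wnt9b and Wnt3, also on chromosome 11 and 24.3 kb apart, had 0.01 TPM and 0.45 TPM. Wnt10b and Wnt1, on chromosome 15 and 11.7 kb apart, had 0.22 TPM and 0 TPM. Wnt6 and Wnt10a, on chromosome 1 in the same direction and 6.19 kb apart, had 0.82 TPM and 0.78 TPM. In 3 of the 4 pairs the members' libraries did not overlap.

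Wnt7b RNA was divided over several annotated transcripts that begin the protein differently. Stretches that tell them apart are shown because the division of the Wnt7b level between these transcripts rests on them. In Wnt7b-201 the first coding exon (chr15:85581380-85581475) holds 96 coding bases. Wnt7b-202 has the same exon but starts at an internal ATG, and the capitals mark the 71 bases that are coding in both, in different frames. The frames meet again because the second exon of Wnt7b-202 is 4 bases longer, shown in capitals at the end of its last 30 bases (chr15:85558903-85558932). Wnt7b-204 starts from another first coding exon (chr15:85577508-85577590), whose start codon is in capitals. All lie on the minus strand of mm10 and are printed 5′ to 3′ from the GENCODE M21 transcripts.
Wnt7b-201: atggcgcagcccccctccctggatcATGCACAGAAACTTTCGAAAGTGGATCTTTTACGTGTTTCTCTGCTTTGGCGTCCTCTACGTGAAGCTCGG
Wnt7b-202: agaccgtcttcgggcaagaactccgaGTAG
Wnt7b-204: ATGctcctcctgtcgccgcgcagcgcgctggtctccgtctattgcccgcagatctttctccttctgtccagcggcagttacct

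In the first quantification Wnt7b-202, which codes for 349 amino acids, held 47.1% of the Wnt7b level in replicate 1 and 42.6% in replicate 2. Wnt7b-201, which codes for 356 amino acids, held 31.2% and 36.1%. Wnt7b-204, which codes for 353 amino acids, held 17.7% and 20.1%. The second quantification, made from the same reads with another method, gave Wnt7b-202 37.0% in replicate 1 but 3.20% in replicate 2, where Wnt7b-205, an annotated transcript with a more distant first exon, took 39.2%. The first quantification gave Wnt7b-205 nothing in either library. Wnt7b-204 held 18.8% and 21.3% in the second quantification, near its share in the first. Transcripts with the longer second exon held 68.2% and 63.9% of the level in the first quantification and 58.8% and 63.7% in the second. Transcripts with the first exon shared by Wnt7b-201 and Wnt7b-202 held 79.6% and 78.7% in the first quantification and 78.3% in replicate 1 of the second, but 39.5% in replicate 2 of the second.

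The Frizzled receptors were led by Fzd3 (chr14:65192449-65262463, minus strand), which is known for guiding axons together with the cadherin Celsr3. Fzd3 was at 36.7 TPM in replicate 1 and 38.8 TPM in replicate 2, and held 54.1% ± 0.885 of the summed Frizzled level (n = 2). Its main transcript is 12734 bases long, and the gene drew 9526 and 8824 expected counts. Fzd1 (chr5:4753839-4758035) came next, with 8.28 TPM in replicate 1 and 8.23 TPM in replicate 2, so Fzd3 stood more than 4 times higher.

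The other Frizzled genes were lower. Fzd2 was at 5.13 TPM in replicate 1 and 4.64 TPM in replicate 2, and Fzd9, located in the region deleted in Williams syndrome in people, was at 4.11 TPM and 4.65 TPM. Fzd6, a planar polarity receptor known from hair patterning, was at 3.86 TPM and 4.43 TPM. Libraries of Fzd2 and Fzd9 overlapped, and so did those of Fzd9 and Fzd6. Fzd4, the receptor for the vascular ligand norrin, was at 3.64 TPM and 3.31 TPM. Fzd7 was at 2.86 TPM and 2.71 TPM, Fzd8 at 1.79 TPM and 1.93 TPM, and Fzd10 at 1.76 TPM and 1.68 TPM. Each of these stood clear of its neighbour, although Fzd8 and Fzd10 changed places in the second quantification. Fzd5, known from eye development, was the undetected member, with 0.54 TPM in both libraries from 66 and 62 counts. A gene on the opposite strand, Gm38058, shares exon sequence with Fzd5 and had 29 and 20 counts, and whether the counting used strand was not given in the sources used here. In all, 9 members share exon sequence with an opposite-strand gene, among them Wnt7b with AU022754, which had 42 and 44 counts.

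Gene structure makes most Frizzled levels simple to read. In the annotation 6 of the 10 Frizzled genes consist of a single exon and 7 have only 1 transcript, so their levels do not depend on how counts are divided between transcripts. Fzd3, Fzd5 and Fzd6 have more than 1. In replicate 2 a 426-base Fzd3 fragment, Fzd3-201, was given 3.45 TPM from 22.2 counts, and in replicate 1 it was given none. Without it the Fzd3 level was 36.7 TPM in replicate 1 and 35.4 TPM in replicate 2, so replicate 2 became the lower library.

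Between the coreceptors Lrp6 stood well above Lrp5, although the genes resemble each other in size, with 23 exons each and coding regions of 1613 and 1614 amino acids. Lrp6 (chr6:134446476-134566965) was at 20.5 TPM in replicate 1 and 20.3 TPM in replicate 2. Lrp5 (chr19:3584828-3686564), which is also the coreceptor of norrin in vessels, was at 4.72 TPM in replicate 1 and 6.04 TPM in replicate 2. Lrp6 held 79.2% ± 2.99 of the sum (n = 2), and the libraries did not overlap. Part of the Lrp6 level lay on shorter transcripts, and the full-length Lrp6-201 alone was at 14.1 TPM in both libraries.

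Among the Dickkopf and Sfrp genes Dkk3 was the most abundant. Dkk3 (chr7:112116017-112159057), a divergent Dickkopf that is not a typical blocker of Lrp coreceptors, was at 33.8 TPM in replicate 1 and 41.7 TPM in replicate 2, from 2263 and 2675 counts. It made up 98.6% ± 0.125 of the Dickkopf level (n = 2). The Dickkopf genes with a classical part in blocking Lrp5 and Lrp6 were low. Dkk2 was at 0.43 TPM in replicate 1 and 0.61 TPM in replicate 2, Dkk1 had 1 count in each library, and Dkk4 had 0 counts in both. The 3-count floor for Dkk4 was 0.120 TPM in replicate 1 and 0.125 TPM in replicate 2, but the second quantification listed Dkk4 at 0.311 TPM and 0.197 TPM.

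Of the Sfrp genes, Sfrp2 (chr3:83766321-83774316) was at 5.67 TPM in replicate 1 and 4.56 TPM in replicate 2, and Sfrp1 (chr8:23411502-23449632) was at 3.60 TPM and 4.32 TPM. Sfrp2 was the higher gene in both libraries, but the gap was narrow in replicate 2, where Sfrp2 was lower and Sfrp1 higher than in replicate 1. The order in replicate 2 rested on the 600-base noncoding Sfrp2-202, at 0.30 TPM from 2.92 counts. The coding Sfrp2-201 alone was at 4.61 TPM in replicate 1 and 4.27 TPM in replicate 2. Sfrp4 was at 0.86 TPM and 1.05 TPM, and Sfrp5 at 0.14 TPM in both libraries from 5 counts each. Frzb, which codes for the remaining protein of the family and does not carry the Sfrp symbol, was at 6.27 TPM and 5.46 TPM. Its libraries overlapped those of Sfrp2, with a higher mean of 5.87 TPM against 5.12 TPM.

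Axin2 and Axin1, the scaffolds of the destruction complex, were closer in level in the first quantification than in the second. Axin2 (chr11:108920349-108950783), itself a classical target of beta-catenin and TCF/LEF factors, was at 14.3 TPM in replicate 1 and 16.5 TPM in replicate 2. Axin1 (chr17:26138688-26195811) was at 11.2 TPM and 12.1 TPM. The libraries did not overlap and Axin2 was the higher gene in both, but this order depended on Axin2 transcripts other than the full-length form. The full-length Axin2-201 alone was at 8.91 TPM in replicate 1 and 10.1 TPM in replicate 2. Axin1 without transcripts under 500 bases was above that, at 9.92 TPM and 10.7 TPM. In the second quantification Axin2 was at 23.2 TPM in replicate 1 and 30.8 TPM in replicate 2, and Axin1 at 16.0 TPM in both libraries. Axin2-201 held 54.7% and 40.2% of the Axin2 level there.

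The 4 TCF/LEF factors were all detected, at lower levels than the scaffolds. Tcf7l2 (chr19:55741820-55933654), a factor with strong expression in the thalamus, was at 5.32 TPM in replicate 1 and 5.22 TPM in replicate 2. Lef1 (chr3:131110471-131224356) was at 2.85 TPM and 3.31 TPM. Tcf7 (chr11:52252371-52283014), known from T cells, was at 2.79 TPM and 2.49 TPM, and Tcf7l1 (chr6:72626378-72789254), mainly a repressor, was at 1.68 TPM and 2.47 TPM. Neighbours in this order did not overlap, but Tcf7 and Tcf7l1 nearly met in replicate 2, and Lef1 and Tcf7 nearly met in replicate 1. By mean, Tcf7 and Tcf7l1 changed places in the second quantification. Tcf7l1 was the higher there in replicate 1, at 4.22 TPM against 3.79 TPM, but not in replicate 2, at 3.52 TPM against 3.56 TPM. Thalamic markers were present at a summed 50.9 TPM in replicate 1 and 55.2 TPM in replicate 2, with 4 of 6 detected, and their part in the Tcf7l2 level was not tested.

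Axin1, Lef1 and Tcf7l2 each have cassette exons that some transcripts carry and others skip, and these exons are shown because their inclusion could be read in both quantifications. The Axin1 exon (chr17:26192516-26192623) has 108 bases and is absent from Axin1-203. The Lef1 exon (chr3:131191023-131191106) has 84 bases and is absent from Lef1-202. Both lengths are whole numbers of codons, 36 and 28, so skipping keeps the reading frame. The Tcf7l2 exons (chr19:55924530-55924580 and chr19:55925977-55926049) have 51 and 73 bases, lie near the end of the gene and are both absent from Tcf7l2-201. The 73-base exon is not a whole number of codons, so it changes the frame of what follows. All 4 exons lie on the plus strand of mm10.
Axin1-201, 108-base exon: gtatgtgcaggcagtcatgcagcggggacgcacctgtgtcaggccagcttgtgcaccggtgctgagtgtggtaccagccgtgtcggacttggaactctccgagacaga
Lef1-201, 84-base exon: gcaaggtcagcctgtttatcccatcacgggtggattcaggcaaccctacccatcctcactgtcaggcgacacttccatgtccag
Tcf7l2-209, 51-base exon: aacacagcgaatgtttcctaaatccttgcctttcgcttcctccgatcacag
Tcf7l2-209, 73-base exon: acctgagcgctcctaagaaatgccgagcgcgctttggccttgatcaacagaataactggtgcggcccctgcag

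Both forms of each gene were present in both animals. Among the transcripts that either hold the exon or splice over it, the 108-base Axin1 exon was in 53.5% of the Axin1 level in replicate 1 and 63.5% in replicate 2, and the second quantification gave 52.2% and 59.8%. Axin1-203 and Axin1-202 both skip the exon and have the same coding exons. The first quantification assigned the skipping form to Axin1-203 in both libraries. The second assigned it to Axin1-202 in replicate 1, at 44.2% of the gene, and divided it in replicate 2, with 23.6% for Axin1-203 and 16.6% for Axin1-202. The 84-base Lef1 exon was in 63.4% of the Lef1 level in replicate 1 and 81.9% in replicate 2 in the first quantification, and in 63.1% and 69.5% in the second. For Tcf7l2 the methods were further apart: the 51-base exon was in 77.3% and 70.9% in the first quantification and in 53.5% and 60.0% in the second, and the 73-base exon in 66.5% and 64.6% against 48.9% and 52.3%. Tcf7l2 has 22 annotated transcripts and only 281 and 288 counts, the thinnest basis per transcript of these genes.

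**Figure D2:**
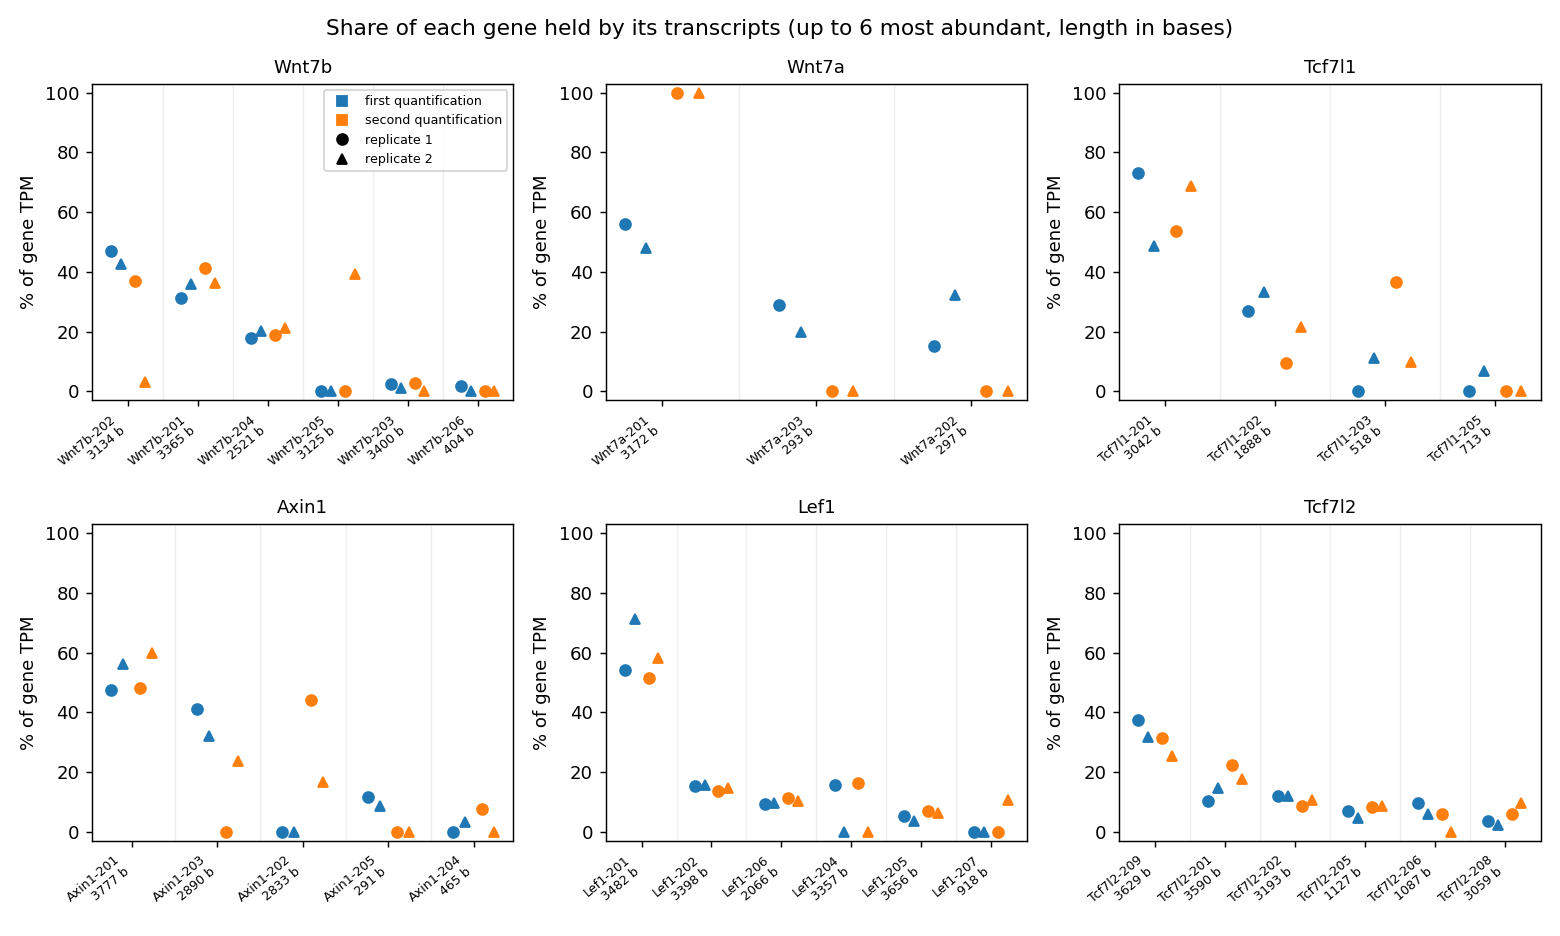
Percent of each gene's level held by its most abundant annotated transcripts in 6 genes, with transcript lengths in bases (b); blue is the first quantification, orange the second, circles replicate 1 and triangles replicate 2. Wnt7b-202 and Wnt7b-205 trade places in replicate 2 of the second quantification, and the short fragments Wnt7a-202, Wnt7a-203 and Axin1-205 hold a share only in the first.

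Of the 16 members with a mean of 1 TPM or more and at least 2 transcripts, 14 had the same most abundant transcript in both quantifications, and over all protein-coding genes of that kind the share was 75.8%. The exceptions were Wnt7b and Fzd6. For Fzd6 the forms Fzd6-201 and Fzd6-202 code for proteins of the same length, 709 amino acids, and Fzd6-201 held 72.6% of the level in the first quantification and 28.9% in the second (means of 2 libraries). Another 20 members have a single annotated transcript.

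Short annotated fragments weighed on some levels. In the first quantification the effective length of a transcript is its length less 99 bases, so a few counts on a short fragment make a large TPM. Wnt7a shows this most: its fragments Wnt7a-202 and Wnt7a-203, of 297 and 293 bases, had 3.53 and 6.56 counts in replicate 1 against 202 counts for the full-length Wnt7a-201, yet held 15.2% and 28.8% of the Wnt7a level. The second quantification put all Wnt7a in Wnt7a-201, at 4.85 TPM in replicate 1 and 5.91 TPM in replicate 2, which places Wnt7a below Wnt4, Wnt9a and Wnt5a in both libraries. Wnt5a was at 7.53 TPM and 8.41 TPM there, whereas in the first quantification Wnt7a was above Wnt5a in both. Transcripts under 500 bases held more than 5% of the level in 5 members: 48.8% in Wnt7a, 26.2% in Wnt16, 12.9% in Wnt5a, 11.6% in Axin1 and 9.10% in Axin2. Against the first quantification the second gave a median ratio of 1.44 for the 27 detected members and 1.53 for the 13334 protein-coding genes compared, and Wnt7a, at 0.790, was the only detected member below 1.

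**Figure D3:**
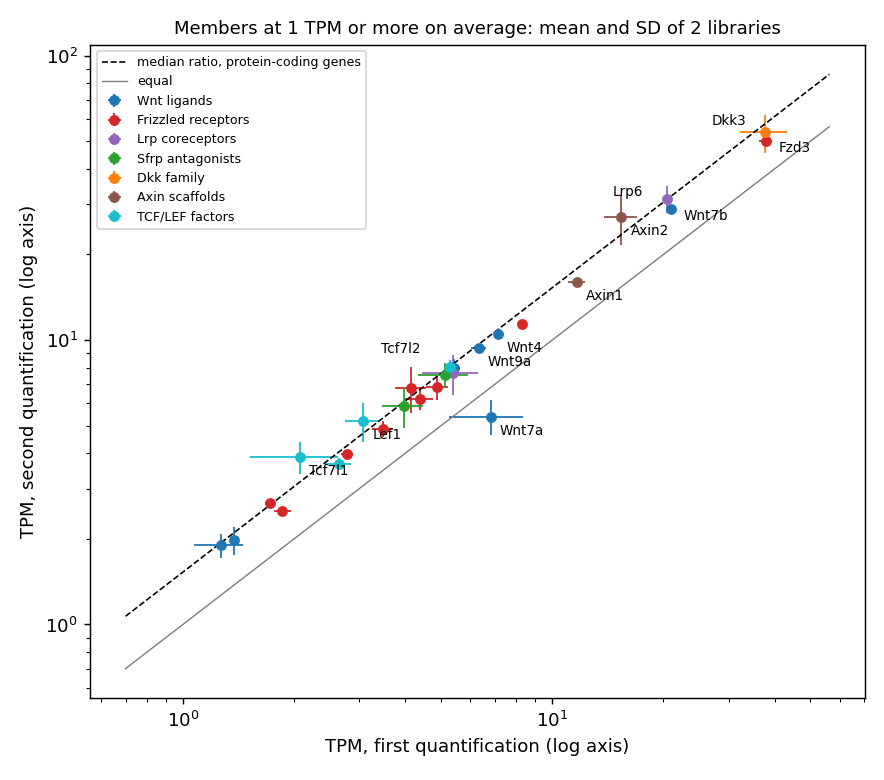
Mean TPM of members in the first quantification (x, log axis) against the second (y, log axis), with bars of 1 SD over 2 libraries; the grey line marks equal values and the dashed line the median ratio of protein-coding genes, 1.53. Most points lie close to the dashed line, and Wnt7a lies below the line of equality.

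Levels in the 2 animals were close for most members. Of the members, 35 reached 20 expected counts on average. Their median log2 ratio of TPM (replicate 2 over replicate 1) was 0.076, against 0.040 for the 14055 protein-coding genes that did so, and 19 members were higher and 15 lower in replicate 2, where 61.5% of these protein-coding genes were higher. Only Wnt10a passed a 1.5-fold difference, which 3.2% of protein-coding genes did. Wnt10a, known from skin and teeth, was at 0.49 TPM in replicate 1 and 1.07 TPM in replicate 2, yet its counts were 24 and 27. The 636-base transcript Wnt10a-202 held 0% of the level in replicate 1 and 59.6% in replicate 2, from 6.76 counts. Without transcripts under 650 bases, no member passed 1.5-fold.

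Counts scaled to library totals show which differences exceed counting error. For 6 of the 35 members the exact binomial 95% interval of the count ratio (Clopper-Pearson, counting error only) left out equality, and it did so for 22.2% of protein-coding genes. In 5 of them replicate 2 was higher, as it was for 14.3% of protein-coding genes. On the log2 scale the count ratio of replicate 2 over replicate 1 was 0.29 for Dkk3 (0.21 to 0.37) and 0.30 for Lrp5 (0.12 to 0.47). It was 0.25 for Sfrp1 (0.03 to 0.47), 0.22 for Wnt5a (0.03 to 0.42) and 0.17 for Axin2 (0.03 to 0.31). Fzd3 was lower in replicate 2, by counts, at -0.06 (-0.10 to -0.02), while its TPM was higher there because of the 426-base fragment described above. Each of these was less than 1.5-fold. With 1 library per animal there is no replicate check of a difference between animals.

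Several marker lists also differed between the libraries. All 6 choroid plexus markers that had enough counts were higher in replicate 2 (median log2 ratio 2.28), and 7 of 8 meningeal fibroblast markers were higher there, with a median of 0.23 and a summed level of 82.8 TPM in replicate 1 and 98.9 TPM in replicate 2. Hippocampal markers were higher in replicate 2 in 6 of 6, with summed levels of 14.3 TPM and 18.1 TPM. Striatal markers were lower in 6 of 6 and markers of myelinating oligodendrocytes in 5 of 5, with medians of -0.67 and -0.31. Markers of excitatory neurons, interneurons and astrocytes had medians of 0.01, -0.05 and 0.00. The part of these tissues in the levels of Dkk3, Lrp5, Sfrp1, Wnt5a, Axin2 and Fzd3 was not tested.

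**Figure D4:**
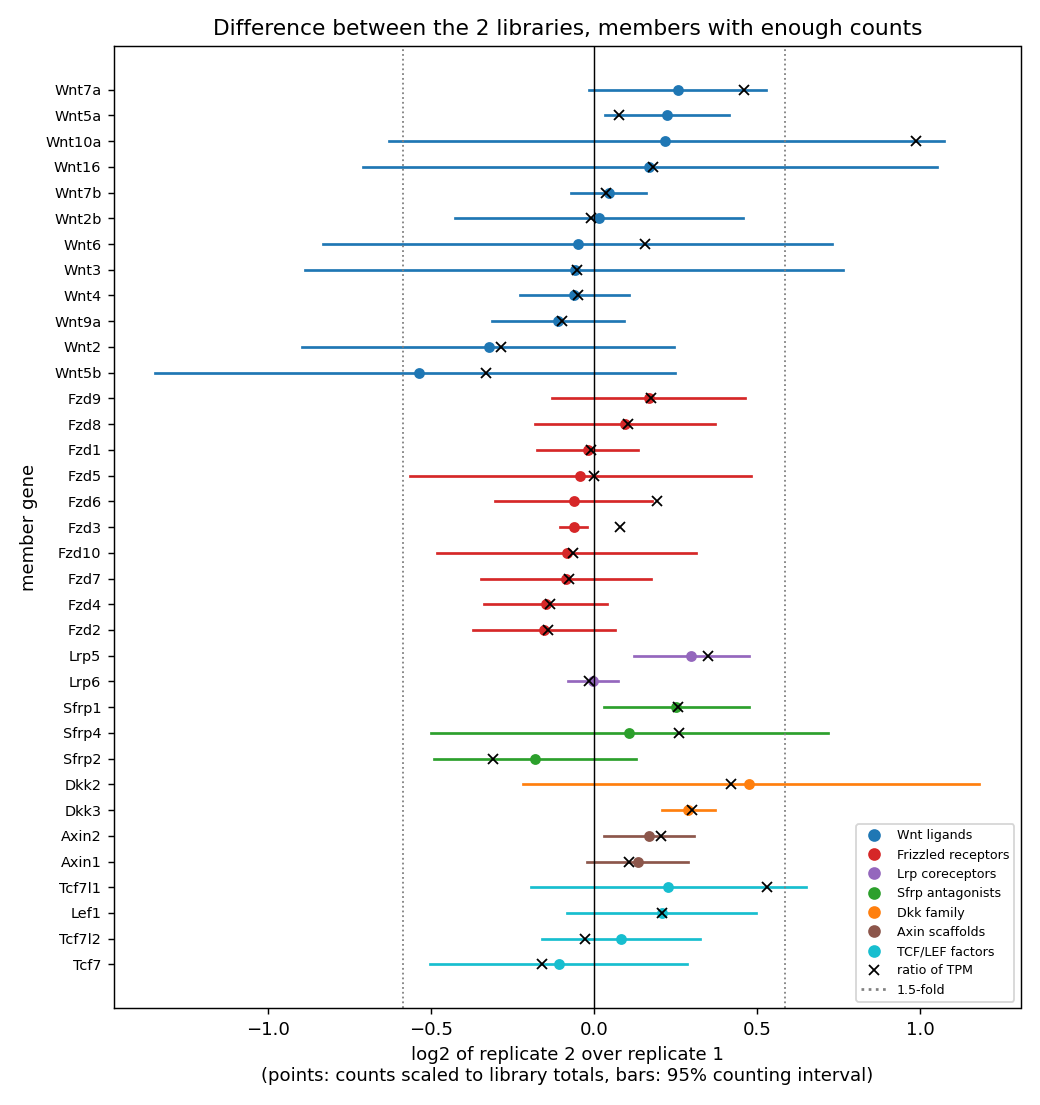
Log2 ratio of replicate 2 over replicate 1 for the 35 members that averaged at least 20 expected counts; points are ratios of counts scaled to library totals, bars their 95% counting intervals, crosses ratios of TPM, and dotted lines 1.5-fold. The Wnt10a cross lies past the dotted line while its point does not, and the bars of Dkk3, Lrp5, Sfrp1, Wnt5a, Axin2 and Fzd3 do not reach 0.

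The rest of the pathway was read from 8 textbook lists with 68 genes, of which 67 matched a gene and 59 were detected. Counts sufficed for a ratio in 63, of which 46 were higher and 17 lower in replicate 2, where 61.5% of protein-coding genes were higher, and 2 passed 1.5-fold. Of the genes that attach or remove the lipid of ligands or carry them to the surface, 3 of 3 were detected. Porcn, the enzyme that attaches the lipid, averaged 31.3 TPM and Wls, the carrier that brings ligands to the surface, 13.6 TPM. Notum, the enzyme that removes the lipid, averaged 3.06 TPM. Notum was at 1.96 TPM in replicate 1 and 4.16 TPM in replicate 2, past 1.5-fold, from 65 and 109 counts, but in the second quantification it was at 4.37 TPM and 3.84 TPM, in the opposite order.

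Of the R-spondins and the genes of receptor turnover, 7 of 9 were detected. Znrf3, a ligase that removes Frizzled receptors, averaged 10.0 TPM and Lgr4, an R-spondin receptor, 9.56 TPM, while Rspo4 had a mean of 0.065 TPM. The libraries of Znrf3 and Lgr4 overlapped, and Lgr4 was the higher gene in both libraries of the second quantification. Of the other receptors and coreceptors, 8 of 11 were detected, led by Ryk at 13.9 TPM and Lrp4 at 13.0 TPM, with Kremen2 lowest at 0.11 TPM. In the second quantification Tspan12 was above Lrp4 in both libraries. Adgra2 and Reck, which are known to serve Wnt7a and Wnt7b at brain vessels and are named for that, were at 5.94 TPM and 3.15 TPM in replicate 1 and at 6.16 TPM and 2.89 TPM in replicate 2. Of the other secreted antagonists, 5 of 7 were detected, led by Apcdd1 at 29.9 TPM and Dkkl1 at 7.28 TPM, with Sost lowest at 0.035 TPM. Sostdc1 was at 3.36 TPM in replicate 1 and 5.58 TPM in replicate 2, past 1.5-fold, from 116 and 185 counts, the same direction as the choroid plexus and meningeal markers, whose part in it was not tested.

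All 16 genes of cytoplasmic signalling and the destruction complex were detected, with a sum of 1499.6 TPM in replicate 1 and 1538 TPM in replicate 2. Apc, the large scaffold that works with Axin, averaged 367 TPM and Ctnnb1, which codes for beta-catenin, 328 TPM. In the second quantification their order was the opposite in both libraries. Ctnnb1 was at 575 TPM in replicate 1 and 451 TPM in replicate 2 there, and Apc at 371 TPM and 380 TPM. The lowest of the list was Nkd2, an inhibitor of Dishevelled, at 3.74 TPM. All 8 matched nuclear cofactors were detected, led by Bcl9l, a beta-catenin coactivator, at 41.3 TPM and Tle3, a corepressor, at 39.1 TPM, with Pygo1 lowest at 6.75 TPM. The libraries of Bcl9l and Tle3 overlapped. All 9 planar polarity genes were detected, led by Celsr2 at 79.7 TPM and Prickle2 at 79.2 TPM, with Celsr1 lowest at 1.33 TPM. The libraries of Celsr2 and Prickle2 overlapped, so their order is not settled. Of 10 textbook targets, some of which also stand in the lists above, 8 were detected, led by Apcdd1 and by Ccnd1 at 14.3 TPM, and Sp5 was lowest at 0.365 TPM. The targets had a median log2 ratio of 0.18 between the libraries, with 8 of 9 higher in replicate 2 in the first quantification and 6 of 9 in the second.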

How the data were processed

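Total RNA-seq of 2 cortex libraries was read from tables deposited by the authors, built on mm10 with GENCODE M21 per the deposited descriptions. Per the file headers, the first quantification holds expected counts and TPM per gene and transcript and the percent of a gene held by each transcript (deposited as IsoPct). The second gives TPM and estimated counts for each transcript, from which gene sums were taken. Program names, versions and the use of strand were not given in the sources used here. Reads of both parental alleles were counted together on the reference of 1 parent.

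Depth was summed over annotated genes: 0.359% of counts in replicate 1 and 0.354% in replicate 2 fell on spike-ins or on 26249 other records that name no gene. Log2 ratios used TPM plus 0.1. Intervals of count ratios used counts rounded to whole numbers (scipy 1.17.1), and the ratio step was tested on simulated data. TMM factors came from edgeR 4.0.16 and size factors from DESeq2 1.42.0. Every member is accounted for, with values per library for those at 1 TPM or more in both libraries or past 1.5-fold. From each pathway list the 2 most abundant genes, the least abundant and any past 1.5-fold are named. The members and all lists, 8 of pathway genes and 14 of markers, were chosen with earlier results of these data known. Of the pathway genes, Tle5 had no match by symbol.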

Additional observations from a re-analysis of the deposited data

How the results depend on the processing

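The 2 libraries allow levels and their order to be described, but no test, and no paired analysis was possible because there is only 1 group. Leaving out a library gives the other library's values: 27 to 30 members detected, and 13 to 15 with the same top transcript. Under the alternatives, 64 values stayed within 1 SD (counts within 1.5 times), 42 moved and 2 reversed. With 2 libraries, each lies within 1 SD of their mean by construction. Sums and shares could therefore only stay when a library was left out, and those outcomes, counted among the 64, are no check. Detected members numbered 41 when any count sufficed.

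The second quantification raised the sums to 72.6 TPM for ligands, 96.2 for Frizzled, 38.9 for Lrp, 15.1 for Sfrp, 55.0 for Dickkopf, 43.0 for Axin and 20.8 for TCF/LEF genes, with leading shares of 39.8% for Wnt7b, 52.1% for Fzd3, 97.7% for Dkk3 and 62.5% for Axin2. Rescaling TPM to nuclear protein-coding genes gave sums of 111, 144, 53.1, 20.96, 78.8, 55.7 and 26.9 TPM in the same order of roles. Posterior mean TPM gave sums of 55.5 for ligands, 10.7 for Sfrp and 15.4 for TCF/LEF genes, and shares of 37.0% for Wnt7b and 98.4% for Dkk3. Without transcripts under 500 bases, a setting chosen after seeing the data, ligands summed to 49.3, Frizzled genes to 68.0 and Axin genes to 24.3 TPM, with shares of 42.2% for Wnt7b and 53.0% for Fzd3.

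The median log2 ratio of members reversed to -0.0094 with TMM factors and -0.011 with DESeq2 size factors, where the median of all protein-coding genes moved from 0.040 to -0.0011 and -0.0022. It was 0.037 with the ERCC total, 0.015 in the second quantification, 0.065 with a pseudocount of 1 TPM, 0.056 at mean counts of 5 or more and of 100 or more, and 0.061 without transcripts under 500 bases. The count of members past 1.5-fold fell from 1 to 0 with TMM, DESeq2 or ERCC scaling, a pseudocount of 1, mean counts of 100 or more, or without transcripts under 650 bases, and rose to 2 at mean counts of 5 or more, where Wnt10b (14 and 7 counts, log2 -0.74) joined Wnt10a. These scalings use gene counts, which do not weigh the short Wnt10a-202; other causes were not tested.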
